A study of Rattus norvegicus with 20 samples.

Results

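The targets of the aryl hydrocarbon receptor (AhR) described here were Cyp1a1, Cyp1a2, Cyp1b1, Aldh3a1, Tiparp and Ahrr. They were chosen by name, and every array feature (probe set) annotated to one of them was taken, which gave 7 probe sets for 6 genes out of 31042 probe sets and 14217 genes in all. Liver RNA came from male Harlan Sprague Dawley rats given tricresyl phosphate (TCP), an organophosphate ester found in hydraulic fluids, lubricants and plastics. The 5 rats of the control group were given only the corn oil vehicle. The treated rats, 3 in each group, received 62.3, 124.5, 248.6, 497.3 or 994.6 mg/kg of TCP in corn oil, the lowest dose being 0.169 mmol/kg and the highest 2.7 mmol/kg. All rats were dosed by gavage on 4 consecutive days, and RNA from the left liver lobe of each rat was measured on 1 array. No source used here states the age of the rats.

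AhR is a ligand-activated transcription factor that waits in the cytoplasm with chaperones. Bound to planar aromatic compounds, some plant products or tryptophan metabolites, it enters the nucleus, pairs with ARNT and binds DNA at elements with the core GCGTG. Strong induction of Cyp1a1 in liver, where the resting level is low, is the classical readout of this pathway, and Cyp1a2 is a liver enzyme that is abundant already at rest. Ahrr and Tiparp are both induced by the receptor and repress it in turn.

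Regulatory sequence was looked up for the members in the RefSeq promoter table (build GRCr8), whose windows run from 250 bases before to 50 after a start site. It matched 4 of the 6: Cyp1a2, Cyp1b1, Tiparp and Ahrr. The Cyp1b1 window (chr6:21094315-21094614, plus strand) lies inside the annotated gene, which starts at 21093927. Its matches are therefore not upstream of that gene start. GCGTG was searched on both strands, where the other strand reads CACGC. The longer form TNGCGTG contains the shorter motif. Ahrr held 3 matches, Cyp1b1 2, Tiparp 1 and Cyp1a2 0, and Ahrr and Cyp1b1 each held 1 match of TNGCGTG. Among 33469 promoters of 300 bases, 29.7% held GCGTG, 10.2% held at least 2 and 4.89% held TNGCGTG. The promoter of Ahrr is shown because it held the most matches, that of Cyp1a2 because its gene varied with Cyp1a1 in the most extreme rat below, and that of Nqo1, an AhR-responsive gene outside the 6, because its level changed with dose. They lie at chr1:30821969-30822268 on the plus strand (Ahrr), chr8:66978100-66978399 on the minus strand (Cyp1a2) and chr19:52220218-52220517 on the minus strand (Nqo1). Each is written from 5′ to 3′ with GCGTG or CACGC in capitals:
Ahrr: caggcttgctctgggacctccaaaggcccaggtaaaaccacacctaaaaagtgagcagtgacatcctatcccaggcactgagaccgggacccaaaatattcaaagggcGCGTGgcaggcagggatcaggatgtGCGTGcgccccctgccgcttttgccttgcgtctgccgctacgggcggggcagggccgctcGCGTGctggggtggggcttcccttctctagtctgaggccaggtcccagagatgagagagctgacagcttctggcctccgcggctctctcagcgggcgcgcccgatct
Cyp1a2: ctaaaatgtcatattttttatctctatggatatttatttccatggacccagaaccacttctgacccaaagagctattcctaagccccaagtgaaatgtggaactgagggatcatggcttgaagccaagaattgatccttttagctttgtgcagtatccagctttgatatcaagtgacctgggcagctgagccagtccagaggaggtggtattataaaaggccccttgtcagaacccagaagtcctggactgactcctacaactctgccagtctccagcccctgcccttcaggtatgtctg
Nqo1: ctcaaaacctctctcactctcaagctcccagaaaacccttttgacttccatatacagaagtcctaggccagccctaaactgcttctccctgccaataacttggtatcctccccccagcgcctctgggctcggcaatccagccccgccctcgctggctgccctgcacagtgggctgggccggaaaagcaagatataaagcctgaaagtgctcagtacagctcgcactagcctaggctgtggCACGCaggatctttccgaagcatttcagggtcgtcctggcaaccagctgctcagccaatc
The matches in Ahrr began 142, 117 and 57 bases before the gene start, and the match in Nqo1 began 10 bases before it. A match of these letters is not a measured binding site, and a window without one says nothing about sites elsewhere. Cyp1a1 and Cyp1a2 are direct neighbours on chromosome 8, with 0 annotated genes between them.

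Expression is given as log2 values, on which a difference of 1 is a 2-fold change. The array medians ran from 6.31 to 6.41, and arrays of the same group correlated at 0.986 to 0.996 over all genes. The tissue carried high values of the hepatocyte genes albumin (Alb, 15.31 to 15.36) and transthyretin (Ttr, 14.72 to 14.91). The mean of Cyp1a2 was above that of 99.2% of genes and the mean of Tiparp above 66.4%. The other members read lower: Cyp1a1 stood above 33.3% of genes, Cyp1b1 above 31.3%, Aldh3a1 above 22.7% and Ahrr above 15.2%. With no measure of signal over background, flat values or small differences at such low levels are uncertain. Replicate 1 of 994.6 mg/kg stood apart, with 30.8% of genes above or below all other arrays, against 8.81% in the median of the arrays other than replicate 1 of 248.6 mg/kg. So did replicate 2 of 124.5 mg/kg, with 23.4%. RNA quality differed between groups: the 3′ minus 5′ difference of the GAPDH control was 1.13 to 1.56 in control and 0.612 to 0.836 at 994.6 mg/kg, but it was highest in a treated array, at 2.58 in replicate 2 of 124.5 mg/kg. In whole liver, a lower value from fewer cells of a type and one from less RNA per cell cannot be told apart.

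No member of the AhR group passed the test at any dose. Changes were tested with limma on all 14217 genes, with a call meaning an adjusted p (Benjamini-Hochberg) below 0.05. At 62.3 mg/kg, 0 of 6 members were called, beside 0% of all genes, and 0 members had an unadjusted p under 0.05. At 124.5 mg/kg the counts were again 0 and 0, beside 0.00703% of all genes called. At 248.6 mg/kg 0 of 6 were called, beside 0.0563% of all genes, and 2 (Cyp1a1 and Cyp1a2) had an unadjusted p under 0.05. At 497.3 mg/kg limma called 0 of 6, beside 0.732%, and 1 (Tiparp) had an unadjusted p under 0.05. At 994.6 mg/kg 635 genes, 4.47% of all, were called, with 0 of the 6 members among them and 0 with an unadjusted p under 0.05. The limma F test of any difference among the 6 groups called 0 members, beside 0.816% of all genes, with 1 member (Cyp1a1) at an unadjusted p under 0.05. The trend over dose steps (control 0, highest dose 5) called 0 members by limma, beside 6.47% of all genes, with 0 at an unadjusted p under 0.05. An unadjusted limma p under 0.05 was held by 349 of all 14217 genes at 62.3 mg/kg, 717 at 124.5 mg/kg and 945 at 248.6 mg/kg. That count was 1729 at 497.3 mg/kg, 2641 at 994.6 mg/kg, 1447 in the F test and 2940 in the trend. The median change of the 6 at 994.6 mg/kg was -0.03 on the log2 scale, and that of all genes was -0.01.

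**Figure D1:**
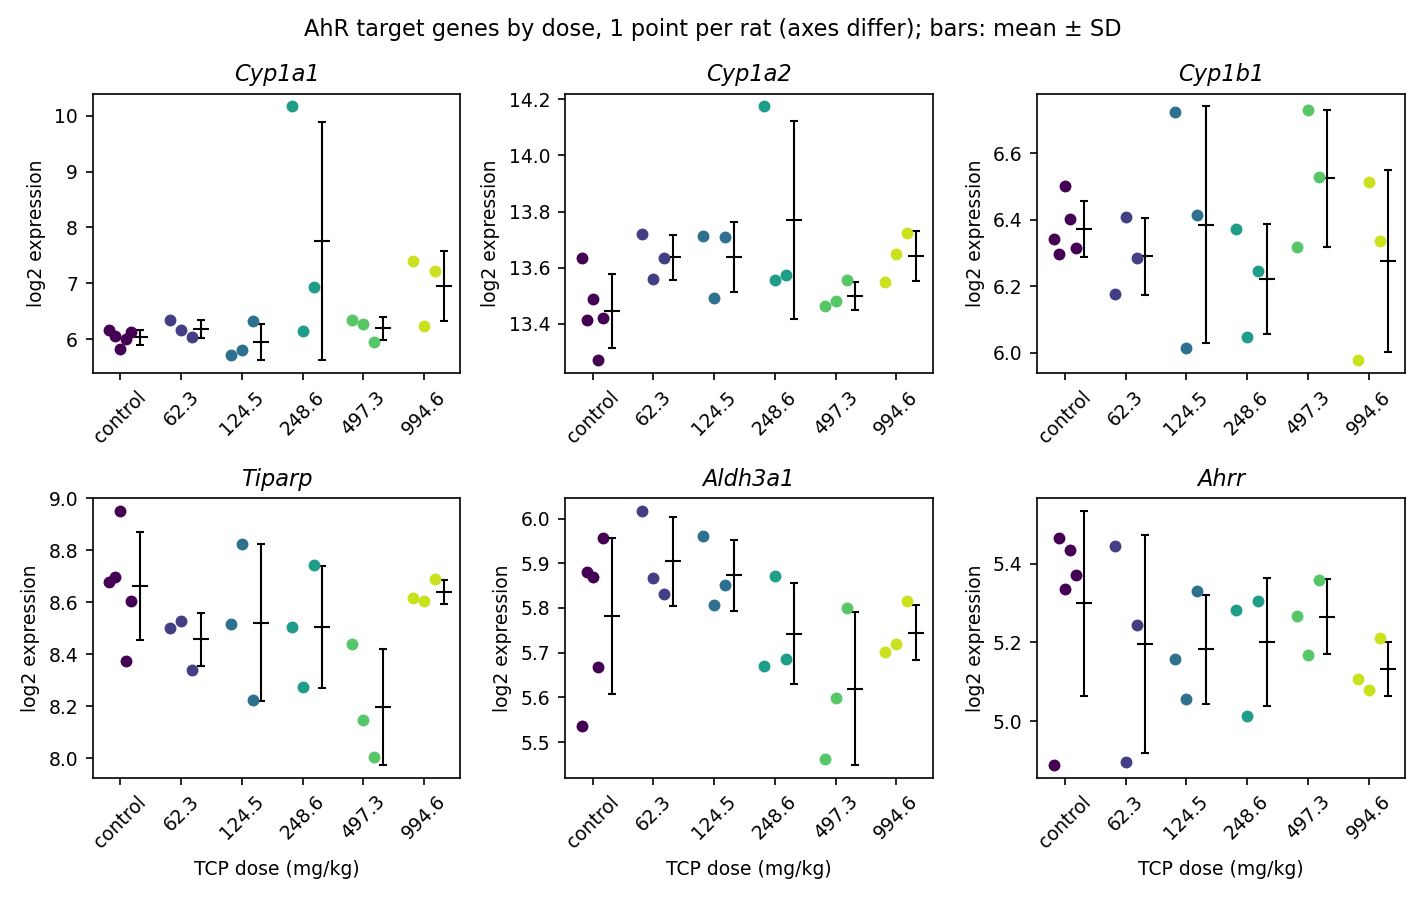
Log2 expression of the 6 AhR target genes on the vertical axes, which differ between panels, against TCP dose in mg/kg. Each point is 1 rat and the black bars are the group mean and SD. In the Cyp1a1 panel 1 rat at 248.6 mg/kg stands at 10.17, and at 994.6 mg/kg all 3 rats lie above the 5 controls; the Ahrr panel shows no treated rat outside the control range, whose lower end is 1 rat at 4.89.

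Cyp1a1, the inducible monooxygenase that oxidises polycyclic aromatic compounds, was the most variable member. In control its log2 values were 6.17, 6.05, 5.82, 6.01 and 6.13, in the order of replicates. They were 6.35, 6.17 and 6.04 at 62.3 mg/kg and 5.72, 5.81 and 6.33 at 124.5 mg/kg. Both of these groups overlapped control, and the lowest values of all 20 rats were the first pair at 124.5 mg/kg. At 248.6 mg/kg the 3 rats read 10.17, 6.15 and 6.94, so 1 rat was far above, 1 lay inside the control range and 1 was moderately above it. The values were 6.35, 6.27 and 5.96 at 497.3 mg/kg, overlapping control. They were 7.39, 6.23 and 7.22 at 994.6 mg/kg, where all 3 rats lay above all 5 controls, as for 14.0% of all genes in one direction or the other. This was the only combination of member and dose in which the groups did not overlap: at the lower doses 0 of 6 members stood clear of control, beside 2.76% of all genes at 62.3 mg/kg, 3.5% at 124.5 mg/kg, 7.32% at 248.6 mg/kg and 10.0% at 497.3 mg/kg. Over all doses, 10 of 15 treated rats lay above every control and 2 lay below every control. Among the 10, replicate 2 of 62.3 mg/kg did so only narrowly, at 6.168 against 6.166 in the highest control. How many of all genes would give such counts was not computed, so they describe the values and test nothing.

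The group means of Cyp1a1 were 6.04 ± 0.14 (SD, n = 5) in control, 7.75 ± 2.13 at 248.6 mg/kg and 6.95 ± 0.63 at 994.6 mg/kg (SD, n = 3 each). From high to low, the groups stood in the order 248.6, 994.6, 497.3, 62.3 mg/kg, control and 124.5 mg/kg, and every neighbouring pair in that order had overlapping ranges. At 248.6 mg/kg the mean was 3.29-fold that of control, a log2 difference of 1.72 ± 0.54 (SE), with a limma adjusted p of 0.583 and a 95% interval of 0.58 to 2.86. The large mean came from 1 rat: without it the difference was 0.51 ± 0.25, with a limma adjusted p of 0.882. At 994.6 mg/kg the mean was 1.88-fold that of control, a log2 difference of 0.91 ± 0.54 with a limma adjusted p of 0.400 and a 95% interval of -0.22 to 2.05. The differences at 62.3, 124.5 and 497.3 mg/kg were 0.15, -0.08 and 0.16, each with an SE of 0.54. The trend was 0.18 ± 0.11 per dose step, with a limma adjusted p of 0.344.

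The call for Cyp1a1 at the highest dose turned on single rats. The fit uses 1 spread for all groups of a gene, so the rat at 10.17 also sets the error at the other doses. Without that rat the difference at 994.6 mg/kg kept its size at 0.91 and its SE was 0.22, which passed the limma test with an adjusted p of 0.0263 and a 95% interval of 0.45 to 1.38. With only control and 994.6 mg/kg in the fit, the SE was likewise 0.22 and the limma adjusted p was 0.0523. When replicate 1 of 994.6 mg/kg, the array that stood apart over all genes, was left out as well, the difference was 0.69 ± 0.23 with an adjusted p of 0.203. With limma's array weights the difference was 0.32, with an adjusted p of 0.669. Those weights were 7.50 for replicate 2 of 994.6 mg/kg, the lowest of its group in Cyp1a1, and 0.311 and 0.692 for replicates 1 and 3. The weighted mean of that dose therefore came mostly from 1 rat. Without replicate 2 of 994.6 mg/kg the difference was 1.27 (adjusted p 0.285), and over all alternatives the limma adjusted p ran from 0.0263 to 0.770.

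**Figure D2:**
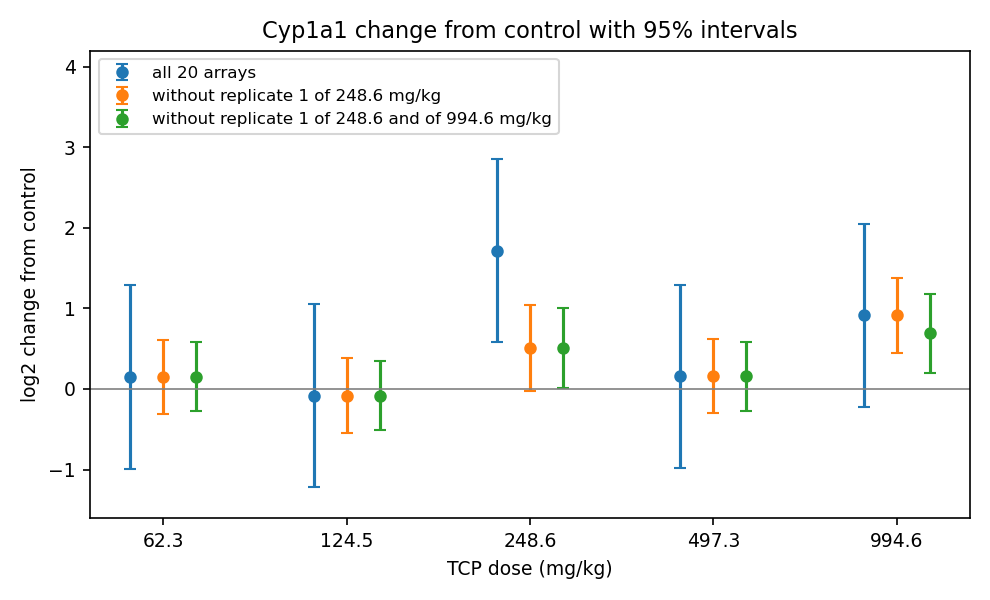
Change of Cyp1a1 from control on the log2 scale against TCP dose in mg/kg, with 95% intervals from limma, for all 20 arrays (blue), without replicate 1 of 248.6 mg/kg (orange) and without replicate 1 of both 248.6 and 994.6 mg/kg (green). At 994.6 mg/kg the estimate is 0.91 with all arrays and without the first array, and 0.69 without both, and the blue interval is the widest at every dose.

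Some markers of other cells and zones moved with the highest dose, and their part in the Cyp1a1 values was not tested. All 3 red blood cell genes fell at 994.6 mg/kg: the globin gene Hbb by 1.54, the erythroid heme synthase Alas2 by 1.63 and the globin chaperone Ahsp by 0.53 on the log2 scale. Their summed level had a log2 value of 13.23 to 13.43 in control, 12.39 to 12.75 at 248.6 mg/kg and 10.76 to 12.49 at 994.6 mg/kg. Of 7 periportal genes 2 fell, Hal by 0.83 and Cyp2f4 by 0.54, with summed levels of 15.35 to 15.54 in control and 15.15 to 15.46 at 994.6 mg/kg. Of 7 pericentral genes 1, the glutamate transporter Slc1a2, rose by 0.91. The median difference at 994.6 mg/kg was -0.14 over the 7 pericentral genes and -0.48 over the 7 periportal genes. The pericentral summed levels were 14.50 to 14.76 in control and 14.39 to 14.62 at 994.6 mg/kg, overlapping as the periportal sums did. The epithelial adhesion gene Epcam rose by 0.86 at 497.3 mg/kg and by 0.69 at 994.6 mg/kg, 1 of 3 cholangiocyte genes. The pancreas gene Cela1 fell by 0.60, 1 of 3 on that list. Without replicate 1 of 994.6 mg/kg, Hal, Cyp2f4, Ahsp and Cela1 were no longer called, at -0.62, -0.47, -0.49 and -0.45 (limma adjusted p 0.136, 0.0606, 0.0860 and 0.0963). The change of Hbb was then -1.001 and stayed called. Hal and Ahsp were also not called with the GAPDH difference as a covariate. None of 5 hepatocyte, 7 stellate, 4 endothelial, 5 Kupffer cell or 5 leukocyte genes was called by limma at 994.6 mg/kg. With the GAPDH 3′ minus 5′ difference as a covariate, the Cyp1a1 difference at 994.6 mg/kg was 0.67 (adjusted p 0.588).

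The rat with the highest Cyp1a1 (replicate 1 of 248.6 mg/kg) was singular for Cyp1a1 far more than for the rest of its transcriptome. Its Cyp1a1 was 16.0-fold above the median of the 20 rats and 2.78 log2 units above the next rat. Of all 14217 genes, Cyp1a1 ranked first there, both in its distance above the median and in its distance above the next highest array. The same array had only 3.77% of genes outside the range of the other 19, and each of those 19 had 3.89% to 30.8%. Cyp1a2 was also highest in this rat, at 14.18 against at most 13.73 elsewhere, which gave it rank 5 of all genes by distance above the other 19. The other 4 members lay within the range of the other rats: Cyp1b1 at 6.37, Tiparp at 8.50, Aldh3a1 at 5.67 and Ahrr at 5.28. None of 49 cell type markers lay outside the range of the other 19 arrays in this rat, and its GAPDH difference was 0.859, inside the range of the other treated rats.

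Cyp1a1 spread widely even against the whole array. Its pooled SD within groups was 0.857, larger than in 99.8% of genes, and the median over all genes was 0.150. Its range over the 20 rats was 4.45, which ranked 15 of 14217. These values include the highest rat. The wide variation of Cyp1a1 was already known when these genes were taken up, so the ranks describe it and test nothing. With the highest rat left out, the plain SD over the other 19 was 0.45, which includes differences between doses and is not a within-group SD. The pooled within-group SD over the 20 rats was 0.165 for Cyp1a2, 0.206 for Cyp1b1, 0.205 for Tiparp, 0.133 for Aldh3a1 and 0.188 for Ahrr.

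Cyp1a2, the constitutive hepatic enzyme that demethylates caffeine and activates arylamines, overlapped control at every dose. In control its log2 values were 13.63, 13.41, 13.49, 13.27 and 13.42. They were 13.72, 13.56 and 13.63 at 62.3 mg/kg, 13.71, 13.49 and 13.71 at 124.5 mg/kg, and 14.18, 13.56 and 13.57 at 248.6 mg/kg. They were 13.46, 13.48 and 13.56 at 497.3 mg/kg, and 13.55, 13.65 and 13.73 at 994.6 mg/kg. Of all doses together, 7 of 15 treated rats lay above all controls and 0 lay below them. Replicate 3 of 62.3 mg/kg did so only narrowly, at 13.6345 against 13.6338 in the highest control. The share of all genes with such a count was not computed. The means were 13.45 ± 0.13 (SD, n = 5) in control, 13.77 ± 0.35 at 248.6 mg/kg and 13.64 ± 0.09 at 994.6 mg/kg (SD, n = 3 each). The difference at 248.6 mg/kg was 0.32 ± 0.12 (limma adjusted p 0.606), and without the rat with the highest Cyp1a1 it was 0.12 (adjusted p 0.963). At 994.6 mg/kg it was 0.19 (limma adjusted p 0.405, 95% interval -0.05 to 0.44).

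Over all 20 rats Cyp1a2 was correlated with Cyp1a1, but that relation rested on the rat with the highest Cyp1a1. Pearson's r was 0.749 (permutation p = 0.00803, adjusted over 5 relations 0.0402) and Spearman's rho was 0.371 (permutation p = 0.108, adjusted 0.272). Only 1 of the 14216 other genes had a higher r with Cyp1a1. Without the 2 rats farthest from the Cyp1a1 median (replicate 1 of 248.6 and of 994.6 mg/kg), r was 0.324 (permutation p = 0.189, adjusted 0.819). Without the highest rat alone it was 0.246 (adjusted permutation p 0.513). Within dose groups, as deviations from group means, r was 0.755 with a permutation p of 0.136. The other 4 members had r with Cyp1a1 of -0.147 (Cyp1b1), 0.050 (Tiparp), -0.268 (Aldh3a1) and 0.051 (Ahrr), with adjusted permutation p from 0.626 to 0.841.

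**Figure D3:**
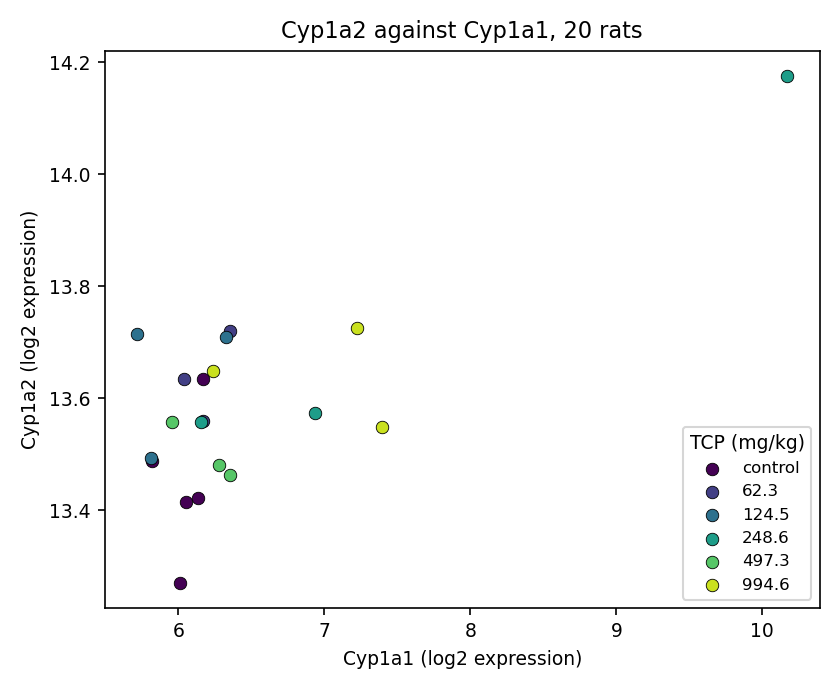
Log2 expression of Cyp1a2 against that of Cyp1a1 in 20 rats, coloured by TCP dose in mg/kg. The rat at 248.6 mg/kg with Cyp1a1 at 10.17 and Cyp1a2 at 14.18 lies apart from the others, which have Cyp1a2 between 13.27 and 13.73 and Cyp1a1 up to 7.39.

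The genes whose values over the 20 rats were most like those of Cyp1a1 were Cmc1 (r = 0.854), Cyp1a2 (0.749), Mboat1 (0.730), Pdia3 (0.669) and Akap3 (0.646). All 5 had their highest value in the rat with the highest Cyp1a1. Without that rat the r of Cmc1 was 0.589, of Mboat1 0.274, of Pdia3 0.625 and of Akap3 0.641. Most like Cyp1a2 were Cyp1a1 (0.749), Gnpnat1 (0.738), Lin7c (0.684), Panx3 (0.670) and Cyb5a (0.652), the last being the cytochrome b5 that passes electrons to P450 enzymes. These are descriptions across animals that share dose groups.

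Cyp1b1, the CYP1 enzyme that is mainly expressed outside the liver, overlapped control at every dose. Its log2 values were 6.34, 6.30, 6.50, 6.40 and 6.31 in control, and ranged from 5.98 to 6.73 over the 20 rats. At 497.3 mg/kg they were 6.32, 6.73 and 6.53, and at 994.6 mg/kg 5.98, 6.51 and 6.34. Treated rats lay on both sides of control, 4 of 15 above and 6 below all controls, and the share of all genes with such counts was not computed. The differences from control ran from -0.15 at 248.6 mg/kg to 0.15 at 497.3 mg/kg, each with an SE of 0.14 and a limma adjusted p of at least 0.737. The 95% interval at 994.6 mg/kg was -0.39 to 0.20. At 124.5 mg/kg the difference was 0.01, and 0.20 without replicate 2, which stood apart over all genes (limma adjusted p 0.798).

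Aldh3a1, an aldehyde dehydrogenase of the classical AhR battery, likewise overlapped control at every dose. Control values were 5.53, 5.88, 5.87, 5.67 and 5.96, and the 20 rats ranged from 5.46 to 6.02. The 3 rats at 994.6 mg/kg read 5.70, 5.72 and 5.82, all inside the control range. Its mean was highest at 62.3 mg/kg (5.90 ± 0.10) and lowest at 497.3 mg/kg (5.62 ± 0.17, SD, n = 3 each). The difference at 994.6 mg/kg was -0.04 ± 0.10, with a limma adjusted p of 0.894 and a 95% interval of -0.24 to 0.17. The adjusted p at the other doses was at least 0.555.

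Tiparp, which encodes a mono-ADP-ribosyltransferase that represses AhR, had its lowest group mean at 497.3 mg/kg. Control values were 8.68, 8.70, 8.95, 8.38 and 8.61, and those at 497.3 mg/kg were 8.44, 8.15 and 8.004. Of these 3 rats, 2 lay below all controls and 1 lay inside the control range. The rats at 994.6 mg/kg read 8.62, 8.61 and 8.69, within control. Over all doses 5 of 15 treated rats lay below all controls and 0 lay above, a count whose share over all genes was not computed. The means were 8.66 ± 0.21 (SD, n = 5) in control and 8.20 ± 0.22 (SD, n = 3) at 497.3 mg/kg. The difference was -0.46 ± 0.14, with a limma adjusted p of 0.145, a 95% interval of -0.76 to -0.17 and adjusted p from 0.0632 to 0.356 over the alternatives. At 994.6 mg/kg it was -0.02 (adjusted p 0.954). A second Tiparp probe set, with values of 4.65 to 5.86, differed by -0.28 ± 0.21 at 497.3 mg/kg (limma adjusted p 0.692) and by 0.28 ± 0.21 at 994.6 mg/kg (adjusted p 0.590). The probe sets therefore had opposite signs at the highest dose, with neither called.

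Ahrr, the repressor that competes with AhR for ARNT, had no treated rat outside its control range, which 1 low control widened. Control values were 4.89, 5.47, 5.34, 5.44 and 5.37, the first lying apart from the other 4. Against those 4, 13 of 15 treated rats lay below and 0 above. That count is no test: the control was set aside for being low in these data, which by itself puts more treated rats below the rest. How many of all genes would give such a count was not computed. At 248.6 mg/kg the rats read 5.28, 5.01 and 5.31, and at 994.6 mg/kg 5.11, 5.08 and 5.21. The difference at 994.6 mg/kg was -0.17 ± 0.13, with a limma adjusted p of 0.544 and a 95% interval of -0.44 to 0.10. Without control replicate 1 it was -0.27 ± 0.11, with a limma adjusted p of 0.224. The differences at the lower doses ran from -0.12 to -0.03, with an adjusted p of at least 0.934. In the rat with the highest Cyp1a1, Ahrr was 5.28, below the 4 higher controls and inside the full control range.

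The receptor machinery did not pass the test either. None of the 12 measured genes for the receptor, its partners, chaperones and coactivators was called by limma at any dose. An unadjusted p under 0.05 was held by 0 of them at the lower doses. At 994.6 mg/kg it was held by 1 of them, beside 2641 of all 14217 genes. The median difference of the 12 at that dose was 0.05, and that of all genes was -0.01. Ahr, the receptor itself, was 5.23 ± 0.22 (SD, n = 5) in control, against 5.27 ± 0.11 (SD, n = 3) at 994.6 mg/kg, a difference of 0.05 ± 0.12 (limma adjusted p 0.886). Arnt, its DNA-binding partner, was 5.92 ± 0.09 and 5.86 ± 0.14, a difference of -0.06 ± 0.09 (adjusted p 0.818). These are low readings: the mean of Ahr was above that of 14.7% of genes and the mean of Arnt above 24.3%. The chaperone gene Hsp90aa1 was not analysed here.

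**Figure D4:**
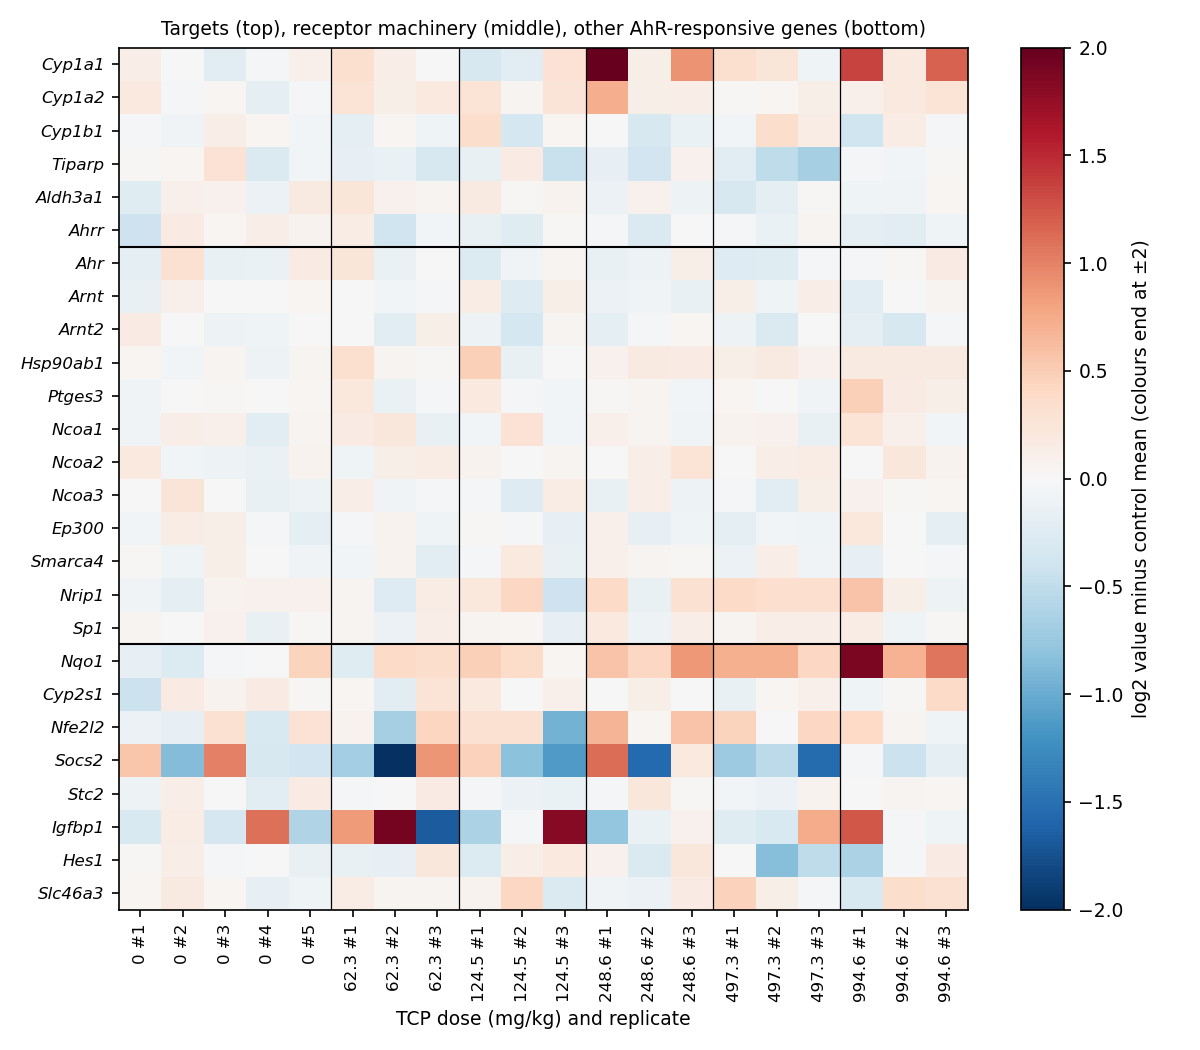
Log2 value minus the control mean (colour, ending at ±2) for the 6 targets (top), 12 genes of the receptor machinery (middle) and 8 other AhR-responsive genes (bottom), in columns of 20 rats ordered by TCP dose in mg/kg and replicate. Cyp1a1 is dark red in 1 rat at 248.6 mg/kg and red in 2 rats at 994.6 mg/kg, Nqo1 deepens with dose, and Socs2 and Igfbp1 vary widely in control and treated rats alike.

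Among 8 other genes known to respond to AhR ligands, 1 rose at 994.6 mg/kg and 0 fell, beside 4.47% of all genes called. The median difference of the 8 was 0.11. Ugt1a6, Ugt1a7c and Gsta2 were on the same list of 11 genes but were not analysed here. The gene that rose was Nqo1, a quinone reductase that answers both to AhR and to the oxidative stress factor NRF2. Its values were 8.50 ± 0.27 (SD, n = 5) in control and 10.38, 9.19 and 9.57 at 994.6 mg/kg, where all 3 rats lay above the controls. The rise was 1.21 ± 0.22 (limma adjusted p 0.00347), and 0.88 (adjusted p 0.0293) without replicate 1 of that dose. The Nqo1 trend was 0.22 ± 0.04 per dose step (limma adjusted p 0.00115). Of 15 treated rats, 8 lay above all controls, a count whose share over all genes was not computed. In the rat with the highest Cyp1a1, Nqo1 was not the highest: it lay inside the range of the other rats. The correlation of Nqo1 with Cyp1a1 was 0.383 over 20 rats, 0.723 over the 19 without that rat and 0.534 without replicate 1 of 994.6 mg/kg as well. As deviations from group means it was 0.123 over all 20 rats, that rat included. The value within groups without that rat was not computed.

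Ephx1 and Alas1, which serve P450 enzymes, were called at the highest dose, where Cyp1a1, Cyp1a2 and Cyp1b1 were not. The Cyp1a1 difference was of similar size to theirs, at 0.91, but its SE was 0.54. The differences of Cyp1a2 and Cyp1b1 at that dose were 0.19 and -0.10. Of 7 genes for P450 partners and heme, 2 rose and 0 fell at 994.6 mg/kg, and their median difference was 0.34. Ephx1, the microsomal epoxide hydrolase that opens epoxides made by P450 enzymes, rose by 0.89 ± 0.11 (limma adjusted p 0.0001), and was also called at 248.6 mg/kg (0.63, adjusted p 0.0248) and 497.3 mg/kg (0.61, adjusted p 0.00828). The call at 248.6 mg/kg ended under 10 of 32 alternatives, among them the removal of any one of the 3 rats of that dose, and that at 497.3 mg/kg ended without its replicate 1 (0.49, adjusted p 0.0555). Alas1, the rate-limiting enzyme of hepatic heme synthesis, rose by 0.95 ± 0.18 (limma adjusted p 0.00564), with 3 of 3 rats above all controls. Of 6 genes that break down tryptophan, the source of several natural AhR ligands, 1 fell and 0 rose at 994.6 mg/kg. It was Kmo, kynurenine monooxygenase, at 10.92 ± 0.11 in control and 10.36 ± 0.18 at 994.6 mg/kg, a fall of 0.56 ± 0.11 on the log2 scale (limma adjusted p 0.00623), and without replicate 1 of that dose the fall was 0.46 (adjusted p 0.0659).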

How the data were processed

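Per the submitters' processing notes, the log2 expression values the authors deposited come from RMA. RMA corrects background, equalises the distributions of the arrays and summarises probe sets. No source used here gives its version or a measure of signal over background. The number of arrays limits the precision.

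The table held 31042 probe sets besides 57 controls. Of these, 20826 had 1 gene symbol, 436 had several and 9780 were unnamed here. The probe set with the highest mean stood for each gene, with no filter on low values, which gave 14217 genes. limma 3.58.1 in R 4.3.3 fitted 1 mean per group to all arrays, with 14 residual degrees of freedom. Adjusted p-values are over all genes of a comparison, and the script was tested on simulated data. Correlations used 100000 permutations, two-sided. Named genes were the 6 members, up to 4 called genes per list, Ahr, Arnt and Nqo1, and the 5 genes most like Cyp1a1 and Cyp1a2. The members and lists were chosen with earlier results of these data known. Alternatives changed the probe set choice, the normalization, a filter on low values, array weights, eBayes options, a replicate block, the groups fitted, the dose scale, RNA quality and each left-out array. The joint removal of 2 arrays, the correlations and likeness without the highest array, and the fit of the block's arrays with no block were chosen after seeing the data.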

Additional observations from a re-analysis of the deposited data

Results flagged for a closer look

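Ahrr was 4.89 in 1 control rat (replicate 1) and 5.34 to 5.47 in the other 4. The gap to the nearest control was 0.778 of the range of the 5 values, above Dixon's 95% critical value of 0.71 for 5 samples. It was the 1 flagged value among the highest and lowest values of the 6 members in control, and chance alone flags some groups in such a screen. Groups of 3 rats were not screened.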

How the results depend on the processing

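Over the alternatives, 222 of 223 counts of called members equalled the reported 0. The exception was the comparison of 994.6 mg/kg with control, where leaving out single arrays gave 0 to 1 called members, the 1 being Cyp1a1 without replicate 1 of 248.6 mg/kg. The correlation of Cyp1a2 with Cyp1a1 (0.749) was 0.324 without the 2 farthest arrays, 0.246 without the highest and 0.755 from deviations from group means, none past the permutation test. Of 1127 values of uncalled members, 40 changed sign. The filter on low values kept only Cyp1a2 and Tiparp among the members. The number of genes called ran from 3 to 20 at 248.6 mg/kg, 38 to 281 at 497.3 mg/kg, 151 to 2841 at 994.6 mg/kg, 48 to 1247 in the F test and 514 to 2971 in the trend, with 8, 104, 635, 116 and 920 reported. The most at 994.6 mg/kg came with array weights, where replicate 2 of that dose weighed 7.50 and replicates 1 and 3 weighed 0.311 and 0.692. The fewest came without replicate 1 of both 248.6 and 994.6 mg/kg. Of the called list genes at 994.6 mg/kg, Ephx1, Nqo1, Slc1a2, Hbb and Alas2 kept their calls under every alternative. Kmo, Hal, Cyp2f4, Ahsp and Cela1 lost theirs without replicate 1 of that dose, and Hal and Ahsp also with the GAPDH covariate. Alas1, Epcam and Hal lost theirs with the replicate block, and Epcam, Hal and Kmo in the same 18 arrays without it. The cause of these changes was not tested.

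Replicate numbers showed no uniform pairing of the rats: deviations of arrays with the same number correlated at -0.312 to 0.366, over 0.1 in 15 of 45 pairs. Their mean r was 0.036, against -0.018 for arrays of different numbers. Such values cannot show that no rats were paired. With the replicate number as a block, which left out control replicates 4 and 5, 0 members were called in any comparison and 310 genes at 994.6 mg/kg, against 250 without the block in the same 18 arrays.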

Other observations

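Several genes other than the 6 targets, chosen after their values were seen, lay beyond the other 19 rats in the rat with the highest Cyp1a1 (replicate 1 of 248.6 mg/kg). After Cyp1a1, the largest distances above the next array were those of Rnf144a (8.85 against at most 8.33), Mboat1 (6.05 against 5.57) and Lmo7 (8.82 against 8.36). Of the 8 other AhR-responsive genes, 2 were highest there: the growth hormone signalling inhibitor Socs2 at 8.91, against 5.77 to 8.79 elsewhere, and Nfe2l2, which encodes NRF2, at 11.02 against at most 10.92. On the low side, the peroxisomal membrane gene Pxmp4 was 8.21 against at least 9.78 elsewhere, and the cadherin gene Cdh17 was 7.01 against at least 7.16. In all, 270 genes lay above and 266 below the other 19 arrays.

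With that rat left out, the genes most like Cyp1a1 over the other 19 were others: Cetn4 (r = 0.809), Tapbp (0.773), Grin2c (0.772), Serpina10 (0.770) and Trib3 (0.750). Cyp1a1 at 7.39 was second highest in replicate 1 of 994.6 mg/kg, the array with the most genes beyond all others. Hmox1, heme oxygenase, differed by 1.58 ± 0.50 at 994.6 mg/kg without passing the limma test (adjusted p 0.0783).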
